A study of Mus musculus with 14 samples.

Results

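The 2 BC XO and 3 BC XY embryonic stem (ES) cell lines were compared, 5 of the 14 lines of a series on sex chromosome complement. All 5 were F1 hybrids of a C57BL/6J mother and a CAST/EiJ father, so the letters BC name the maternal strain before the paternal strain. Each line came from its own blastocyst, the XY lines from male embryos. The XO lines are labelled as from XO embryos, whereas the study's text has the karyotype arise while the lines were being established, so the stage at which the second sex chromosome was lost, and which one it was, is not settled by these sources. The lines were grown with LIF on mouse embryonic fibroblast feeders, which were depleted in consecutive steps before total RNA was taken, and ribosomal RNA was removed before strand-specific sequencing. The XO group rests on 2 lines, the only XO lines in the series, and which parent gave their X chromosome is not given in the sources used here. The comparison took every gene with a deposited value of 10 or more in at least 2 of the 5 lines, which held for 15427 of the 23298 genes in the table. The values are read signals per gene that the study scaled to a common depth, and they are called values here.

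Both groups carry 1 X chromosome, so neither has a second X to inactivate or to express from both copies, and the chromosome that differs is the Y. In the mouse the Y carries few genes that act outside the testis, among them the broadly expressed Uty, Ddx3y, Eif2s3y and Kdm5d, each with a partner on the X. The partners Kdm6a, Ddx3x, Eif2s3x and Kdm5c escape X inactivation, and the X and Y copies of each are therefore a dose pair in XY cells that XO cells lack. The comparison asks how alike cells with the same X dose are when the Y is absent, and for how many genes likeness can be stated with 2 and 3 lines.

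Sums of the values were 29296797 to 30122093 per line, and low values stepped in whole multiples of 0.669 to 1.25, which is taken as the value of 1 read. In these units the lines held 24117740 to 43769614 reads. The largest distances between lines were those of BC XY 3 to BC XY 1 and to BC XO 2, given below. Of the 15427 genes, 4 were listed at 0 in both XO lines while reaching 100 or more in XY lines and were left out of the tests, leaving 15423. They were Jarid2 (a subunit of Polycomb repressive complex 2), Arhgap21, Cmss1 and Filip1l. Jarid2 had values of 14153, 17511 and 12517 in the XY lines, and Arhgap21 had 2228, 2956 and 3268. Arhgap21 was also listed at 0 in all 3 BC XX lines, as were Cmss1 and Filip1l, and Jarid2 was above 0 in each of them. A listed 0 at such a level elsewhere can be a failed estimate, so no fold was formed. Genes were tested with limma on log2(value + 5), with p-values adjusted by Benjamini-Hochberg across the 15423 genes, and log2 differences below are XO minus XY on that scale.

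The sequences of the Y genes decide whether a 50-base read can be assigned to the Y or to the X copy. The coding sequence of Ddx3y shared none of its 1925 words of 50 bases with any transcript of Ddx3x in the mm9 annotation, at 84.6% identity over the aligned coding bases. Uty shared 12 of 3587 words (0.335%) with Kdm6a at 82.9% identity. Eif2s3y, Kdm5d, Zfy2, Usp9y and Uba1y (annotated as Ube1y1) shared 0 words with their X partners. An aligned stretch of 50 coding bases, chosen as the earliest window with the median number of mismatches, shows how the copies differ, with the mismatched bases in capitals. For Ddx3y and its partner the window held 8 mismatches, and for Uty and its partner it held 7.
Ddx3y: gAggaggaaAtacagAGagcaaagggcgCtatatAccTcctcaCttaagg
Ddx3x: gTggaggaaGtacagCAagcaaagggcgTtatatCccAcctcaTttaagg
Uty: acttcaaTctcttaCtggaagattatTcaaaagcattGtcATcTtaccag
Kdm6a: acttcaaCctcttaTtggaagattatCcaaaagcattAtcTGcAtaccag
These sequences are those of the C57BL/6J reference (mm9), whereas the Y of the XY lines came from CAST/EiJ.

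Uty, a Y-linked homolog of the histone H3K27 demethylase Kdm6a, lies on the minus strand at chrY:433304-582202 (mm9). Its values were 2088, 1529 and 945 in the XY lines and 15.2 and 30.6 in the XO lines. The groups did not overlap, and the XO mean was 1.5% of the XY mean. The log2 difference was -5.76 ± 0.40 (SE), with an FDR of 0.00833 in limma. Ddx3y, an RNA helicase at chrY:597158-623056, had values of 2268, 1397 and 1115 in the XY lines and 101 and 102 in the XO lines. Its groups were also apart, at a log2 difference of -3.84 ± 0.31 (SE) and an FDR of 0.0185 in limma. With 2 and 3 lines, whether these genes were called depended on which line was left out. The limma FDRs of Uty and Ddx3y were 0.243 and 0.351 without XY 2. They were 0.0042 and 0.0042 without XY 1, and 0.0026 and 0.0049 without XY 3. A fit without XO 1 or XO 2 keeps 1 XO line, so only its log2 difference is given here. With each of the 5 lines left out, the log2 difference ran from -6.17 to -5.35 for Uty and from -4.06 to -3.55 for Ddx3y.

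The remaining Y-linked genes were not called. Eif2s3y, a translation initiation factor subunit, had values of 255, 195 and 40.8 in the XY lines and 24.7 and 31.3 in the XO lines. Both XO lines lay below all XY lines, and XY 3 lay near them (log2 difference -2.02, 95% interval -3.68 to -0.36). Uba1y, a ubiquitin-activating enzyme, was at 246, 246 and 333 in the XY lines and at 101 and 154 in the XO lines, so the XO mean was 46.4% of the XY mean. Zfy2, a zinc finger transcription factor, was at 15.0, 21.6 and 48.9 in the XY lines and at 0 in both XO lines. Taking 3 reads per line as the most that a count of 0 allows, the XO level was at least 12.6-fold lower. Kdm5d, a histone H3K4 demethylase, was at 28.7, 6.65 and 6.02 against 16.0 and 10.7, and the groups overlapped. Sry, the testis-determining gene, had 1 read in XY 3 and 0 in the other lines, and Zfy1 and Usp9y did not pass the filter.

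Y-linked signal in the lines labelled XO differed by gene. Zfy1, Zfy2 and Sry were at 0 in both. In reads, Ddx3y stood at 127 in XO 1 and 144 in XO 2, against 1666 to 1816 in the XY lines, and Uty stood at 19 and 43 against 1412 to 1839. The XO mean as a share of the XY mean was 1.5% for Uty, 6.39% for Ddx3y, 17.1% for Eif2s3y and 46.4% for Uba1y. It was 96.5% for Kdm5d, which had 20 and 15 reads in the XO lines against 23, 8 and 9 in the XY lines, and 84.0% for Usp9y, which had 0 and 4 reads against 1, 3 and 2. Feeder fibroblast RNA was present in all 5 lines, at the levels given with its markers. The study's karyotyping found the stated chromosome number in most but not all spreads of the XO and XY lines. The parts of feeder RNA and of cells with other chromosome numbers in the Y-linked signal were not tested.

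**Figure D1:**
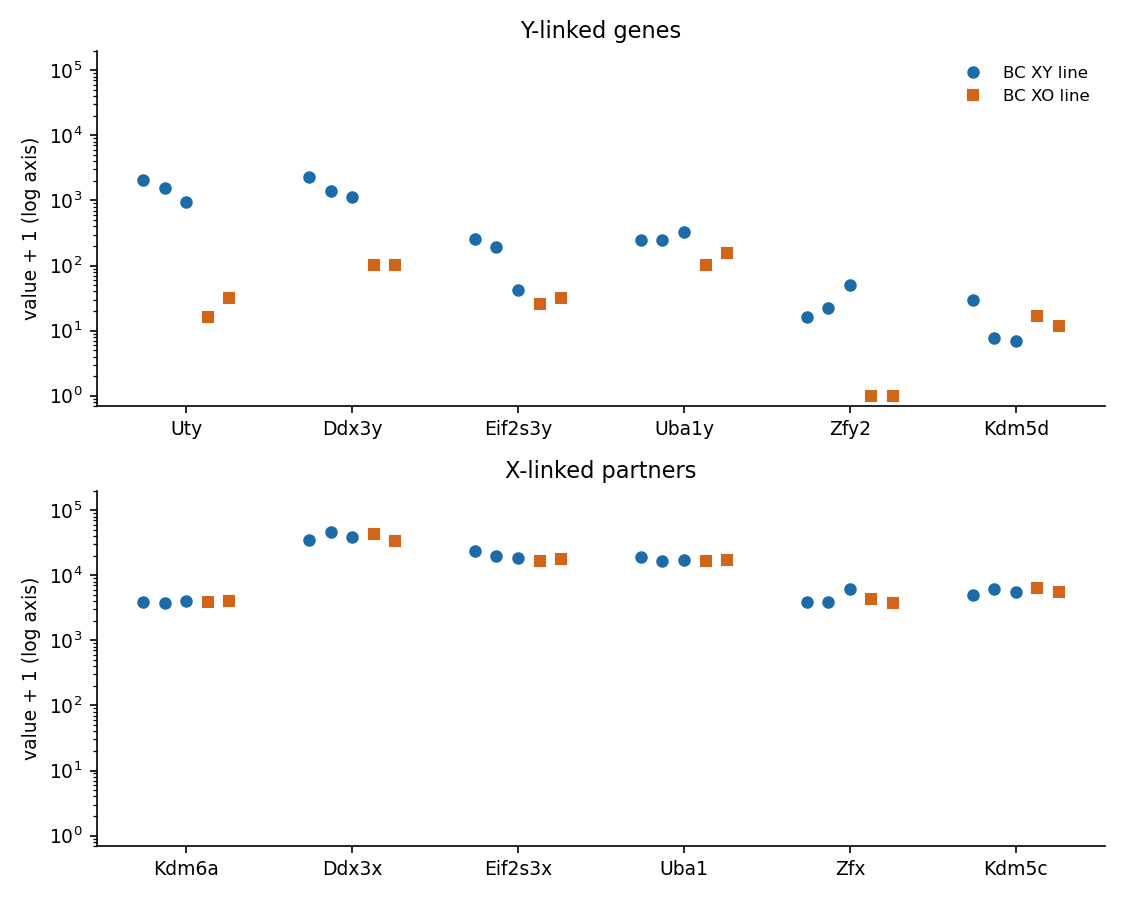
Values + 1 (log axis) of 6 Y-linked genes and of their X-linked partners in each of the 3 BC XY lines (circles) and 2 BC XO lines (squares), 1 point per line. Uty and Ddx3y were 945 to 2268 in the XY lines and 15.2 to 102 in the XO lines, while the partners lay at like levels in both groups.

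The X-linked partners as a set did not stand higher in the XO lines, with a median log2 difference of -0.04 over the 9 tested. Of these, 3 had estimates above 0 and 6 below. Kdm6a had values of 3846, 3749 and 4025 in the XY lines and 3833 and 3995 in the XO lines, and its XO values fell inside the XY range (log2 difference 0.02, 95% interval -0.31 to 0.34). Ddx3x was at 34957, 45605 and 38440 against 42522 and 33908 (log2 difference -0.05, 95% interval -0.47 to 0.36). Eif2s3x was at 23928, 19742 and 18220 against 16541 and 17566, with both XO lines below the XY lines (log2 difference -0.27, 95% interval -0.65 to 0.12). Of the 9 partners tested, 0 were called and 8 were equivalent within 2-fold in limma-based pairs of one-sided tests (FDR under 0.05), against 75.1% of all genes tested. Most partners had mean values above 1000. The equivalent share was 93.1% of all genes from 1000 to 5000 and 96.1% of those at 5000 or more. The partner not shown equivalent was Sox3, a transcription factor of the neural lineage and the partner of Sry. Its values were 42.5, 72.3 and 38.8 against 81.4 and 61.2 (95% interval -0.35 to 1.30).

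Over all genes limma called very few between the 2 groups. The study's own comparison of these groups, made with Cufflinks, reported more genes at an FDR of 0.05, while also finding the groups close. At an FDR of 0.05, limma called 4 genes of 15423 (0.0259%), with 1 higher in the XO lines (0.00648%) and 3 lower (0.0195%), and 3 genes were called at 0.01. The count was 1, Zfy2, which was not among the 4, in a model over all 14 lines, 9 with the genes listed at 0 kept, 2 without XY 2 and 1 without XO 1. Without adjustment, 302 genes (1.96%) had a p under 0.05, fewer than the 5% that uniform p-values would give, with 209 higher and 93 lower in the XO lines. That share depended on single lines and on the model, at 5.27% (813 genes) without XY 1, 0.739% (114 genes) without XO 1 and 8.58% (1323 genes) with the level of feeder fibroblast markers as a covariate. The other 2 called genes, besides Uty and Ddx3y, were copies of housekeeping genes. The size of a difference was small for most genes. The median absolute log2 difference was 0.17 (1.12-fold), 95% of genes lay under 0.60 (1.51-fold) and 99% under 0.90 (1.86-fold). Estimates beyond 2-fold were seen for 92 genes (0.597%), 44 higher and 48 lower in the XO lines, and a test against a fold of 2 called 3 of them. The XO lines both lay above all XY lines at 8.97% of genes and both below at 8.57%.

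**Figure D2:**
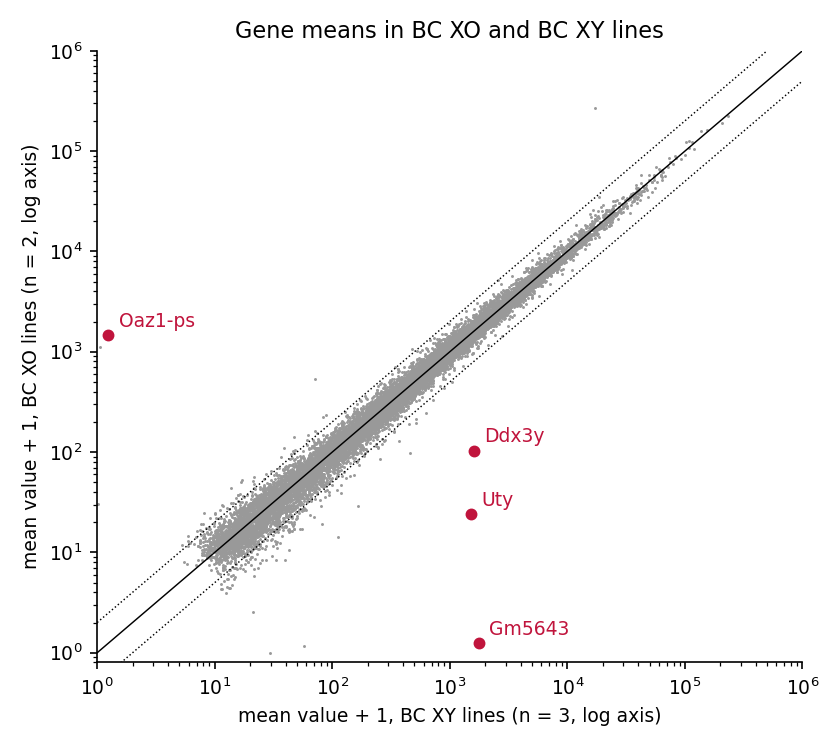
Mean value + 1 in the 2 BC XO lines against the 3 BC XY lines for the 15423 genes tested, both on log axes. The solid line marks equal means, the dotted lines 2-fold, and the 4 called genes are labelled.

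Gm5643 is annotated at chrX:138732108-138733073 on the plus strand of mm9 and is a processed copy of Hnrnpa1, which encodes an RNA-binding protein. Over 955 aligned bases the copy was 98.6% identical to an Hnrnpa1 transcript, and 541 of its 917 words of 50 bases (59.0%) also occur in Hnrnpa1 transcripts. The window below, the earliest with the median number of mismatches, has 0 mismatches, and a read from it cannot be assigned to either gene.
Gm5643: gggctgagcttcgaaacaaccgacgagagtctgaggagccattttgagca
Hnrnpa1: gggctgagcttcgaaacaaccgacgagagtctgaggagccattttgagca
The values of Gm5643 were 1077, 3329 and 876 in the XY lines, and 0 and 0.476 in the XO lines (log2 difference -8.13 ± 0.55 (SE), limma FDR 0.00833). Hnrnpa1 itself had 2583, 7592 and 7088 in the XY lines and 8326 and 6913 in the XO lines, and the groups overlapped. Because reads can be split between the copies, the X-linked call for Gm5643 is uncertain. It was also lost without XO 1 (limma FDR 0.056) and in the model over the 8 BC lines (limma FDR 0.999).

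Oaz1-ps, a pseudogene of the ornithine decarboxylase antizyme gene Oaz1 on chromosome 17, had values of 0, 0.116 and 0.618 in the XY lines and 1966 and 952 in the XO lines. Its log2 difference was 8.03 ± 0.37 (SE) at a limma FDR of 0.00139, the only call higher in the XO lines. Oaz1, the parent, was at 8949, 7222 and 6682 against 5362 and 8053 and overlapped. Both pseudogenes were at or near 0 in every line of 1 group and ran from 876 to 3329 in the other, a pattern also shown by genes that limma called in some settings only. Atp6v0c, a proton pump subunit, was at 0.0218, 0.0571 and 0.0688 in the XY lines and at 2094 and 148 in the XO lines. Its log2 difference was 6.81 (limma FDR 0.456) and was 8.70 without XO 2. Atp6v0c was called with a replicate block (limma FDR 0.0356), which takes XY 3 out of the difference and pairs the other lines by number. Without XY 3 and with no block, its log2 difference was again 6.81, at a limma FDR of 0.619, so it was not called. Its pseudogene Atp6v0c-ps2 held 1135, 3884 and 4232 against 2657 and 2410. Btg3, an antiproliferative gene, was at or near 0 in the XY lines and at 31.4 and 27.9 in the XO lines (log2 difference 2.79, limma FDR 0.0678), and was called with a pseudocount of 1 (limma FDR 0.0318), with no filter on low values (0.0129), without a trend in the prior variance (0.0267) and with the genes listed at 0 kept (0.0376). All 710 words of 50 bases in its coding sequence occur in Gm7334, a copy on chromosome 17 that was at 1259, 1028 and 1780 against 1217 and 1016. The opening bases of both coding sequences show this identity.
Btg3: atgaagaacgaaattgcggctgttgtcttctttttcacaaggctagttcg
Gm7334: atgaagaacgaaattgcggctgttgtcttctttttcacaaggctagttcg
With genes off the Y chromosome left out where they were at or under 1 in every line of a group and at 100 or more in a line of the other, which removed Gm5643, Oaz1-ps and Atp6v0c, the calls were Uty and Ddx3y alone. These parents and copies were named after their values were seen.

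The other genes with the largest differences outside the calls were Raver1-fdx1l, Zfy2 and BC096441. Raver1-fdx1l, annotated as a read-through of neighbouring genes on chromosome 9, was at 117, 27.5 and 65.7 in the XY lines and at 557 and 503 in the XO lines. Of its separate neighbours, Raver1 was at 785, 1973 and 1368 against 2067 and 1474, and Fdx1l was at 707, 774 and 755 against 698 and 635. BC096441 was at 31.9, 45.3 and 38.1 against 14.6 and 0.127. A different kind of gene was Lars2, the mitochondrial leucyl-tRNA synthetase, named after its values were seen. It stood at 522836 in XO 1 and at 9793 in XO 2, against 13890, 22592 and 14564 in the XY lines, and was listed at 0 in all 3 BC XX lines. Its difference was carried by 1 line (95% interval -1.21 to 5.43), and it was called without XO 2 (limma FDR 0.0101).

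How far the groups can be called equal depended on the margin and on the level of the gene. A gene counted as equivalent within a margin when limma-based one-sided tests placed its difference above the negative and below the positive margin, at an FDR of 0.05. Within 2-fold, 11590 genes (75.1%) were equivalent, and the share was 50.1% without XY 2, 31.8% without XO 1 and 22% without XO 2. Within 1.5-fold none passed after adjustment, with a smallest FDR of 0.104, whereas 5577 genes (36.2%) had an unadjusted p under 0.05. Between these margins the share rose from 14.4% at 1.6-fold to 40.7% at 1.7-fold, 56.6% at 1.8-fold and 67.3% at 1.9-fold. It was 92.6% at 2.5-fold and 97.0% at 3-fold. The 95% interval of a gene of median precision extended 0.63 log2 units either side of its estimate, or 1.54-fold. A gene with the median standard error of 0.27 would have needed a log2 difference of 2.82 (7.06-fold) to reach the p of the fourth call, so the small number of calls does not show that smaller differences are absent.

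**Figure D3:**
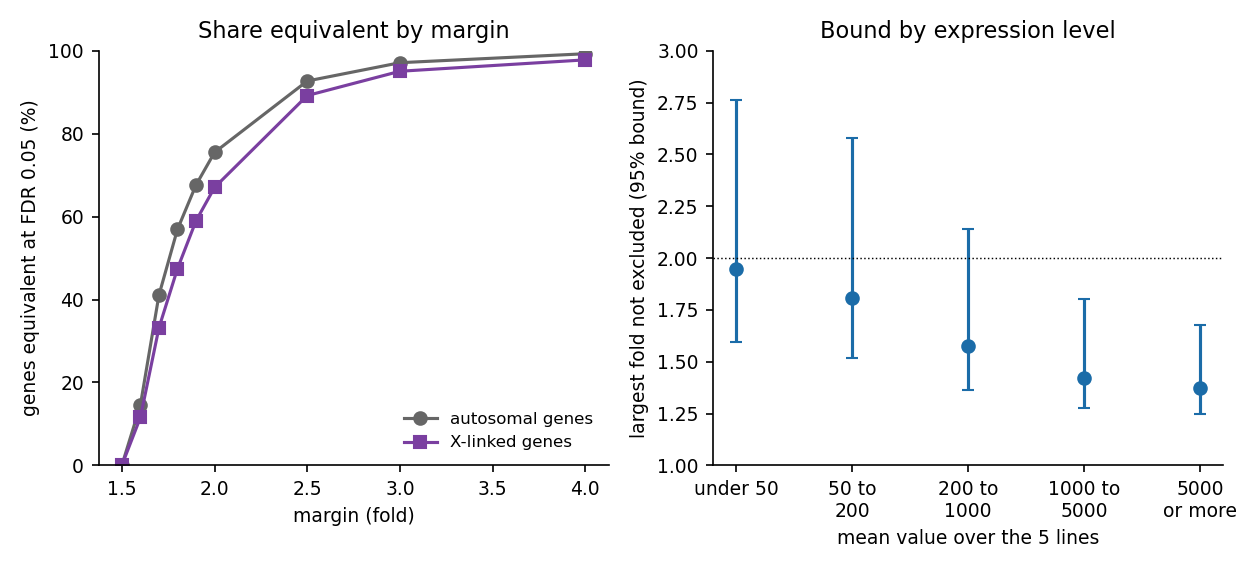
Left, percent of autosomal and X-linked genes equivalent at an FDR of 0.05 against the margin in fold. Right, the largest fold that the one-sided 95% bound allows, as the median (points) and the 10th to 90th percentile over genes (bars), in 5 classes of mean value, falling from a median of 1.95 under 50 to 1.37 at 5000 or more.

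Equivalence was shown more often at higher levels. In genes with a mean value under 50, 1349 of 2975 (45.3%) were equivalent within 2-fold, and in those at 5000 or more 1248 of 1298 (96.1%) were. The shares between were 59.5% from 50 to 200, 81.8% from 200 to 1000 and 93.1% from 1000 to 5000. Counts of equivalent genes in the lists below are to be read beside these shares and the 75.1% of all genes, since lists differ in level. For 3829 genes (24.8%) neither a difference nor equivalence within 2-fold was shown. Their median value was 69.4 against 750.0 in the equivalent genes, and their median absolute difference was 0.42 against 0.13 on the log2 scale. The genes with the narrowest intervals were Ganab, Gapdh, Larp4, Ppp1cb and Psmd2. Ganab, a glucosidase of the endoplasmic reticulum, was at 8733, 8666 and 8691 in the XY lines and 8622 and 8452 in the XO lines. Its log2 difference was -0.03 (95% interval -0.33 to 0.28). Gapdh, the glycolytic enzyme, was at 29894, 31002 and 31157 against 32244 and 33345, with both XO lines above the XY lines and a log2 difference of 0.10 (95% interval -0.21 to 0.40). Psmd2, a proteasome subunit, was at 13755, 14259 and 14382 against 13548 and 13315, with both XO lines below (95% interval -0.38 to 0.23). The narrowest interval still spanned 1.23-fold either side of its estimate.

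Distances between lines placed the XO lines among the XY lines. The root mean square difference of log2(value + 5) over the 15423 genes was 0.44 between the 2 XO lines and 0.49, 0.54 and 0.75 in the 3 pairs of XY lines. Across groups it ran from 0.40 to 0.70 in 6 pairs. The closest pair of all was XY 1 and XO 2, at 0.40, with 335 genes (2.17%) more than 2-fold apart. The most distant was XY 1 and XY 3, at 0.75, with 2370 genes (15.4%) more than 2-fold apart. Line XY 3 was in both of the most distant pairs, the other being with XO 2 at 0.70. Spearman's rho across genes ran from 0.965 to 0.990 over the 10 pairs. These are descriptions over genes, which share lines and are not replicates. With 2 against 3 lines there are 10 arrangements, so an exact permutation test of any value cannot go below p = 0.1.

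**Figure D4:**
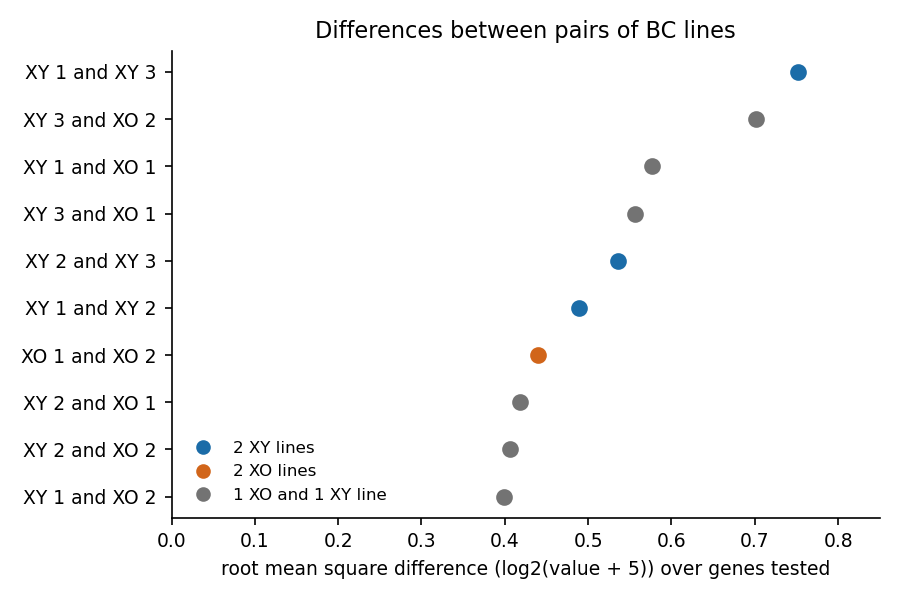
Root mean square difference of log2(value + 5) over the 15423 genes for each of the 10 pairs of lines, ordered by size. The XO pair (0.44) and 3 of the 6 mixed pairs (0.40 to 0.42) lay below all 3 XY pairs (0.49 to 0.75).

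The X chromosome as a whole differed little between the groups. The median log2 difference over 546 X-linked genes was -0.08, and that over 14855 autosomal genes was 0.01. By line, the X-linked medians against the mean of the XY lines were 0.04, -0.03 and -0.05 in the XY lines and -0.06 and -0.04 in the XO lines, so XO 2 lay inside the XY range. Over the 440 X-linked genes with a mean value of 50 or more, both XO lines, at -0.055 and -0.058, lay just below the lowest XY line at -0.051. Gm5643 was the only X-linked gene called. Within 2-fold, 366 X-linked genes (67.0%) were equivalent, against 75.5% of autosomal genes. Both XO lines lay below all XY lines at 79 X-linked genes (14.5%, background 8.57%) and above them at 32 (5.86%, background 8.97%). For scale, in a 3-group fit over the 8 BC lines, which shares the XY lines, the X-linked median of the 3 XX lines against the XY lines was 0.52 and that of the XO lines was -0.08. That fit called 757 genes (4.91%) for XX against XY, 92 of them X-linked. It called 3 (0.0195%) for XO against XY, and none was X-linked, at an FDR of 0.05 in limma. Because the parent that gave the X of the XO lines is not known, a part of its strain or origin in these X-linked differences cannot be told apart.

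Single chromosomes were level in every line. Over genes with a mean value of 50 or more, the median of each autosome against the XY mean lay between -0.06 and 0.09 in all 5 lines. The highest was chromosome 8 in XO 1, at 0.09, and the lowest chromosome 12 in XO 2, at -0.06. By group, chromosome medians of XO minus XY ran from -0.05 (chromosome 12) to 0.07 (chromosome 7) over the autosomes, and the X, at -0.08 over 440 genes, was below all of them.

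The X-linked genes with the largest estimates were uneven within groups. Among the 5 highest in XO, Rhox6, a reproductive homeobox gene, was at 294, 525 and 212 in the XY lines and 518 and 883 in the XO lines (log2 difference 1.07, limma FDR 0.999). Agtr2, the angiotensin II type 2 receptor, was at 164, 79.8 and 1.34 against 94.1 and 197, where the low line was XY 3. Glod5 was at 45.0, 58.2 and 34.8 against 31.9 and 249, and Cxx1c at 15.0, 36.6 and 11.4 against 39.1 and 35.6. Gja6, a gap junction gene, was low throughout, at 2.5, 4.16 and 8.03 against 11.2 and 15.7. Of these 5, Gja6 alone had both XO lines above all XY lines. Among the lowest after Gm5643, Egfl6, a secreted EGF-repeat protein, was at 194, 178 and 127 against 126 and 19.21. Mageb16, a gene of the MAGE family, was at 777, 880 and 833 in the XY lines, 793 in XO 1 and 114 in XO 2. Magee2 showed 45.0, 54.9 and 77.0 against 41.5 and 9.25. In these 3 genes XO 2 was far below XO 1, and XO 1 was near the lowest XY line. Taf7l, a germ cell homolog of a general transcription factor subunit, was at 51.2, 34.9 and 122 against 25.5 and 17.1. Of the 7 X-linked germline and Xlr genes tested, among them Rhox6 and Mageb16, 0 were called and 0 were equivalent within 2-fold.

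The X inactivation centre was read in all lines. Xist, the RNA that coats the inactive X, was at 1343, 841 and 801 in the XY lines and 1219 and 1650 in the XO lines (log2 difference 0.55, 95% interval -0.10 to 1.20). Tsix, its antisense partner, was at 184, 116 and 100 against 199 and 245, with both XO lines above. The libraries mark strand, but whether the counting used it is not given in the sources used here, so reads of the pair may not be separable. Rlim, an activator of Xist, was at 22714, 32782 and 46523 against 24443 and 23557. Of the 7 genes of the centre tested, 0 were called and 3 were equivalent within 2-fold. Of 15 genes known to escape X inactivation, 14 (93.3%, background 75.1%) were equivalent and 0 were called. Rnf128 was not, at 602, 862 and 1790 against 688 and 695, where the high line was XY 3. The matrix protein gene Bgn had the largest estimate in the list, at 1699, 1311 and 1286 against 2210 and 2038 (log2 difference 0.58, 95% interval 0.14 to 1.02, limma FDR 0.999). Of the pseudoautosomal genes listed, 1 was in the table, the ubiquitin ligase gene Mid1, at 147, 229 and 305 against 342 and 122.

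Of the 9 core pluripotency genes tested, 0 were called and 6 (66.7%) were equivalent within 2-fold, against 75.1% of all genes. Pou5f1, which encodes Oct4, was at 26655, 22607 and 17312 in the XY lines and 22594 and 27665 in the XO lines (log2 difference 0.19, 95% interval -0.30 to 0.69). Sox2 was at 7210, 7877 and 7416 against 8924 and 7464 (95% interval -0.22 to 0.47). Nanog, at 5163, 6576 and 10050 against 10809 and 7489, was equivalent within 2-fold with an upper limit of 1.07 on the log2 scale. Utf1, a chromatin factor of undifferentiated cells, was at 1117, 1750 and 1042 against 1793 and 1789, with both XO lines above (95% interval -0.09 to 1.08).

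Naive pluripotency factors, which mark the preimplantation-like state, gave 13 of 16 genes equivalent within 2-fold and 0 called. The spread within each group was wide. Tfcp2l1 was at 13200, 17106 and 25852 in the XY lines and 28160 and 14913 in the XO lines. Klf4 was at 1772, 2473 and 4897 against 3403 and 1978, and Esrrb was at 9659, 13654 and 22005 against 18900 and 12766. In all 3, XO 1 and XY 3 were the high lines. XO 1 exceeded XO 2 and XY 3 exceeded XY 1 in 11 of the 16 genes, and the reverse of both held in 2. Formative and primed epiblast genes ran the other way, with 2 of 14 in the former pattern and 8 in the latter. Dnmt3b, a de novo DNA methyltransferase that rises towards the epiblast, was at 16937, 16179 and 6451 against 8456 and 16879. Its log2 difference between groups was -0.02 with a 95% interval of -1.12 to 1.09. As a description over all 15423 genes, deviations of XO 1 from its group mean correlated with those of XY 3 at 0.51. With those of XY 1 the correlation was -0.51, and deviations of XO 2 are those of XO 1 with the sign changed. The contrast was thus not confined to these lists. These lines were picked after their values were seen, and the share of all genes in either pattern was not counted. Of 145 tested regulators that the study lists for XX against XY, 54 were in the pattern of the naive factors and 37 in its reverse. Of 26 chromatin regulators, 7 and 8 were.

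Some targets of ERK signalling, which pushes ES cells out of the naive state, were uneven over the same lines. Spry4, a feedback inhibitor, was at 1476, 3443 and 7855 in the XY lines and 5001 and 2602 in the XO lines. Dusp4, a MAP kinase phosphatase, was at 1935, 2540 and 4185 against 3685 and 1843. Of 17 ERK targets, 10 (58.8%, background 75.1%) were equivalent within 2-fold and 0 were called. In 10 of the 17, XO 1 exceeded XO 2 and XY 3 exceeded XY 1, and the reverse of both held in 2. As for the naive factors, the lines were picked after their values were seen. The share of all genes in this pattern was not counted, so the count cannot be read as particular to ERK targets. Dusp6, the ERK phosphatase, was level at 5137, 3282 and 3586 against 4037 and 3934 (log2 difference 0.02, 95% interval -0.48 to 0.53). Myc was at 798, 899 and 699 against 1349 and 1123, with both XO lines above (log2 difference 0.63, 95% interval 0.17 to 1.09, limma FDR 0.999). Klhl13, an X-linked ubiquitin ligase adaptor, was at 53527 in XO 2 against 16035 in XO 1 and 12537 to 27642 in the XY lines.

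**Figure D5:**
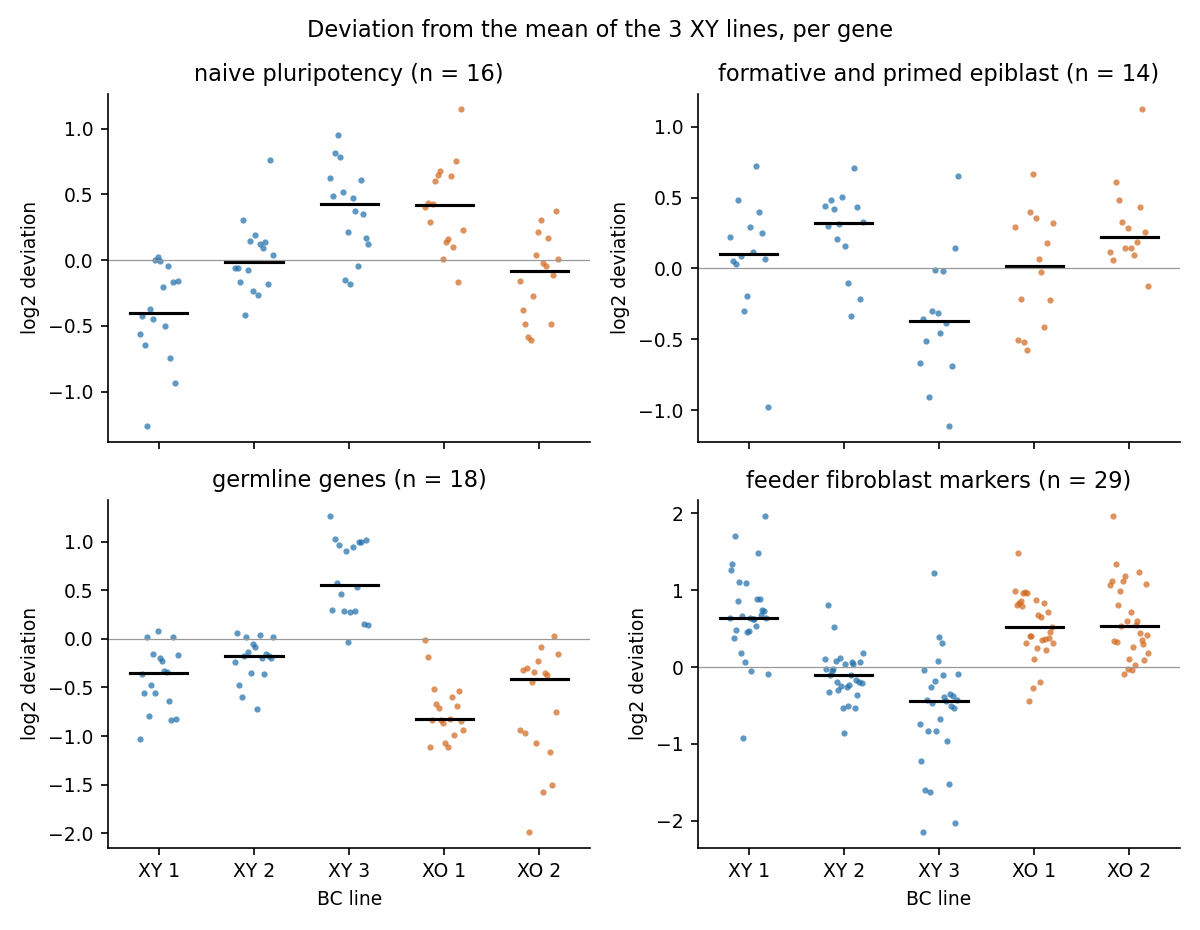
Deviation of log2(value + 5) of each gene (points) from the mean of the 3 XY lines, for 4 gene lists in the 5 BC lines, with the median as a bar. Naive factors were highest in XY 3 and XO 1 (medians 0.43 and 0.42), germline genes were lower in both XO lines than in any XY line by their median, and feeder markers were higher in XY 1, XO 1 and XO 2.

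The estimates for Wnt targets and lineage markers turned on line XO 1. All 11 Wnt targets had estimates above 0, with a median of 0.41, against 0.01 for all genes. Of the 11, 0 were called and 4 were equivalent within 2-fold (background 75.1%). Both XO lines lay above all XY lines at 0 of the 11, against a background of 8.97%. Without XO 1 the median was 0.00 and 6 of the 11 were below 0, and with the feeder covariate 5 were below 0 at a median of 0.23. Brachyury (T), a mesoderm marker, was at 2126, 1581 and 303 against 1990 and 1519, where XY 3 was the low line. Of 23 lineage markers tested, 6 were equivalent and 0 were called. Their median was 0.31 with 17 above 0, and without XO 1 it was -0.16 with 13 below 0. Tubb3, a neural tubulin, was at 1851, 1652 and 1341 in the XY lines and 2517 and 2758 in the XO lines, which lay above (log2 difference 0.72, 95% interval 0.28 to 1.16, limma FDR 0.999).

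Of 26 chromatin regulators, 24 (92.3%) were equivalent within 2-fold and 0 were called, against 75.1% of all genes and 93.1% of those with a mean value from 1000 to 5000. Kdm5b, a histone H3K4 demethylase, was at 24055, 24632 and 22831 in the XY lines and 23696 and 25258 in the XO lines (95% interval -0.27 to 0.35). Ezh2, the Polycomb methyltransferase, was at 3566, 5030 and 4647 against 5139 and 4467. Of 15 DNA methylation genes, 12 were equivalent. Dnmt1, the maintenance methyltransferase, was at 13063, 12473 and 13731 against 14722 and 13305 (95% interval -0.22 to 0.42). Tdg, Mbd3 and Tet3 were not shown equivalent. Of the 145 tested transcription factors and regulators that the study lists for XX against XY, Uty was the only one called, 79 (54.5%, background 75.1%) were equivalent, and the XO lines lay above all XY lines at 19 (13.1%, background 8.97%) and below at 4 (2.76%, background 8.57%). That list was chosen on these samples.

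Imprinted genes, expressed from 1 parental allele, gave 20 of 32 equivalent and 0 called. Kcnq1ot1, a long non-coding RNA of its imprinted domain, was at 15493, 14558 and 18027 in the XY lines and 15609 and 17254 in the XO lines. Peg3, a paternally expressed zinc finger gene, was at 12457, 11268 and 11455 against 14908 and 21716, with both XO lines above (log2 difference 0.62, 95% interval 0.18 to 1.06, limma FDR 0.999). Grb10, a growth inhibitor, was at 7967, 5978 and 7335 against 8234 and 1267, so that XO 2 alone was low.

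Of 14 genes that the study names in connection with Turner syndrome, the human condition of a missing sex chromosome, or with haploinsufficiency, 8 were equivalent within 2-fold between XO and XY lines and 0 were called. Rad50, a DNA repair protein, was at 1621, 2103 and 2088 in the XY lines and 1264 and 1505 in the XO lines, both lower (log2 difference -0.48, 95% interval -0.93 to -0.03, limma FDR 0.999). Fgfr3, a growth factor receptor of bone growth, was at 255, 372 and 677 against 683 and 294. Wnt4, a signal of ovary development, was at 256, 175 and 199 against 327 and 207 (95% interval -0.38 to 1.02). This comparison sets XO against XY cells, which also have 1 X, and not against XX cells.

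Germline and meiosis genes had lower estimates in the XO lines throughout. All 18 tested were below 0, with a median of -0.57 against 0.01 for all genes, and 0 were called. Both XO lines lay below all XY lines at 8 of the 18 (44.4%), against 8.57% of all genes. Hormad1, a protein of the meiotic chromosome axis, was at 371, 338 and 343 in the XY lines and 191 and 299 in the XO lines (log2 difference -0.54, 95% interval -1.15 to 0.06). Mael, a factor of transposon silencing, was at 81.2, 86.5 and 253 against 53.4 and 59.8. Dazl, an RNA-binding protein of germ cells, was at 267, 469 and 1337 against 550 and 285 and overlapped. Line XY 3 was high in many of these genes. Without it the median was -0.44 and 17 of 18 estimates were below 0, and without XO 1 it was -0.41. With the feeder marker level as a covariate it was -0.35 with 16 below 0. Only 2 of the 18 were equivalent within 2-fold. Of 3 tested genes of the totipotent-like state 1 was equivalent, the translation factor gene Eif1a, and 2 of 4 in the Pramel family were.

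Markers of feeder fibroblasts had mostly higher estimates in the XO lines, and none was called. Of 29 tested, 26 estimates were above 0 with a median of 0.51, both XO lines lay above all XY lines at 8 (27.6%, background 8.97%), and 0 were called. The median was 0.84 without XY 1 and 0.29 without XY 3. Col1a1, a fibrillar collagen, was at 984, 683 and 376 in the XY lines and 1266 and 1337 in the XO lines (log2 difference 1.03, 95% interval 0.15 to 1.92, limma FDR 0.999). Col3a1 was at 804, 551 and 66.9 against 884 and 1241. The summed level of the 29 markers was 87340, 46868 and 42470 in the XY lines and 78569 and 72151 in the XO lines, so XY 1 was above both XO lines. In that sum Thbs1 ran from 12331 to 26685 and Vim from 7098 to 14856 over the 5 lines. Fewer fibroblasts and less RNA per fibroblast cannot be told apart in such samples. ES cell markers were high in all 5 lines, as the pluripotency values above show. With the feeder level as a covariate limma again called 4 genes, and 11257 genes (73.0%) were equivalent within 2-fold. The part of feeder RNA in the other differences was not tested.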

How the data were processed

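Total RNA was sequenced as strand-specific, ribosome-depleted single-end reads of 50 bases. Per the labels and the study's methods the authors aligned reads to mm9 with TopHat2 and used Cufflinks and Cuffdiff (versions not given in the sources used here). The deposited table holds a signal of reads for each gene, which the authors brought to the same depth in every line. It is neither a raw count nor per length, so the classes of mean value and the summed marker levels follow reads and not transcript abundance. Low values were whole multiples of a step in 98.5 to 98.8% of cases (within 0.01 step), but the smallest were fractions, so no count test was run although 2 had been planned.

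Genes were placed by GENCODE M1 (mm9) or, for the chromosome alone, by RefSeq (23236 of 23298), and no column of values was left unused (0). Sequences come from the mm9 genome and transcripts and were aligned with Biopython 1.88. Tests used limma 3.58.1 (R 4.3.3) with trended prior variance on log2(value + 5) in the 5 lines, and Benjamini-Hochberg adjustment over 15423 genes. Equivalence used pairs of one-sided tests from the same fit at margins of 2-fold and 1.5-fold, and the other margins were added after the data were seen. The fit was tested on simulated data drawn from the same normal model, which cannot show how it handles values near 0 or differences carried by 1 line. Precision is limited by 3 residual degrees of freedom, moderated to a median of 7.1. Intervals and the floor of 3 reads cover these samples only, and the lines are separate embryos. Named genes were members of 21 lists, the called genes, the 5 with the narrowest intervals at a mean value of 100 or more, the 5 largest uncalled differences without overlap, and the 5 X-linked genes highest and lowest. Genes outside this rule are said to be named after their values were seen. The members and lists were chosen with earlier results of these data known. Alternatives were 12 other settings, 1 added later, and leaving out each of the 5 lines.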

Additional observations from a re-analysis of the deposited data

How the results depend on the processing

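The calls were few and the share of equivalent genes depended on the number of lines. Of the 4 calls, 4 were also called with a pseudocount of 1 (5 calls), a pseudocount of 20 (4), TMM factors (4), median-of-ratios size factors (4), no filter on low values (5), a minimum value of 50 (4) and the feeder covariate (4). The 5-group model over all 14 lines called 1 gene, Zfy2, and 0 past a fold of 2. The 3-group model over the 8 BC lines called 3, without Gm5643. Without a trend in the prior variance 4 were called and 1 was past a fold of 2, and Ddx3y had an FDR of 0.061. Keeping the genes listed at 0 in both XO lines gave 9 calls and 8 past a fold of 2, and leaving out genes at or under 1 in a group, an alternative added after seeing the data, gave 2 and 0. With each line left out, calls ran from 1 to 5, genes past a fold of 2 from 1 to 5, and the share equivalent within 2-fold from 22 to 80.4%. Uty and Ddx3y had FDRs of 0.243 and 0.351 without XY 2 (2 calls), 0.056 and 0.119 without XO 1 (1 call), and Ddx3y had 0.146 without XO 2. The share equivalent was 50.1% without XY 2, 31.8% without XO 1 and 22% without XO 2. An arm left with 1 line is assumed to vary like the other. The share was 68.0% with a pseudocount of 1 and 88.7% with 20. In the other settings that kept all 5 lines, the replicate block apart, it was between 73.0 and 82.2%. Within 1.5-fold it was 0 in all of them. The X-linked median ran from -0.09 to -0.04 with a line left out and was -0.12 with the feeder covariate, below 0 in all settings. The cause of these changes was not tested.

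The labels number the lines but do not pair them, and only 2 numbers are shared. Deviations of XO 1 correlated with those of XY 1 at -0.51, and those of XO 2 with XY 2 at 0.05. With 2 XO lines the deviations of 1 mirror those of the other, so these values cannot decide whether the numbers pair the lines. The study prepared its libraries in batches, and which lines shared a batch is not given in the sources used here. A replicate block gave 5 calls, 4 past a fold of 2, an equivalent share of 69.4% and an X-linked median of -0.09. XY 3 alone bears its number, so the block in effect takes XY 3 out of the difference. The X-linked median is the same as without XY 3. The planned edgeR and DESeq2 tests were not run, because the deposited values could not be returned to whole reads. Depth limits low genes most, with 3 reads standing for a value of 2.01 to 3.75.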
